A study of Mus musculus with 12 samples.

Results

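The genes that bring pyruvate into mitochondria and run the tricarboxylic acid (TCA) cycle were examined in retinal explants kept in 5 mM or 25 mM glucose. They comprised 31 genes of the 53707 in the gene table, chosen by name as the pyruvate carrier, the pyruvate dehydrogenase (PDH) complex with its kinases and phosphatases, pyruvate carboxylase and the enzymes of the cycle. All 31 were found by Ensembl identifier and all 31 were among the 21061 genes with enough counts to be tested. The explants were whole neural retinas of wild-type C57BL/6J mice at 28 days of age (P28), freed of sclera and pigment epithelium and cultured for 48 hours in Neurobasal-A medium with supplements and 5% CO2. One group received 5 mM glucose and the other 25 mM, with 3 biological replicates each, and total RNA was sequenced from 2 technical replicates of every biological replicate, 12 libraries in all. The first technical replicates carry the batch label 1 and the second the label 2. The labels call the 3 samples of a group biological replicates and do not say how many retinas or mice entered each. The adjusted p-values below therefore measure the spread between these 6 samples.

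Pyruvate made by glycolysis either becomes lactate in the cytosol or crosses the inner mitochondrial membrane through the carrier formed by MPC1 and MPC2. The PDH complex then turns it into acetyl-CoA, and this step is switched off by PDH kinases and switched on again by PDH phosphatases. Pyruvate carboxylase instead makes oxaloacetate, which refills the cycle. Photoreceptors are known for sending most of their glucose to lactate even with oxygen present, while their inner segments are packed with mitochondria.

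Of the 31 genes, 0 passed an FDR under 0.05 in the quasi-likelihood test of edgeR, while 1.98% of all genes tested did (417 genes). At an unadjusted p under 0.05 there were 10 genes lower at 25 mM and 0 higher, against 15.5% of all genes lower and 13.2% higher. DESeq2 called 2 of the 31, Cs and Pdk4, both lower, where it called 9.54% of its genes lower, and limma-voom called 1, Pdk4. The median log2 fold change of 25 over 5 mM was -0.14 over the 31 genes and -0.01 over all genes tested, and 20 of the 31 values were below 0 (64.5%, against 50.7% of all genes). In 10 genes the 3 replicates at 25 mM all lay below the 3 at 5 mM, and in 1 gene, Pdp2, all lay above; over all genes these shares were 15.8% and 16.0%. Summed over the 31 genes, the level was 3296, 3005 and 2993 CPM in the 5 mM replicates and 2699, 2845 and 2731 CPM in the 25 mM replicates. The sums did not overlap, and the gap between the groups was smaller than the range within the 5 mM group. CPM are counts scaled to a library of 1000000 counts, here after TMM scaling, the trimmed-mean normalization of edgeR.

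**Figure D1:**
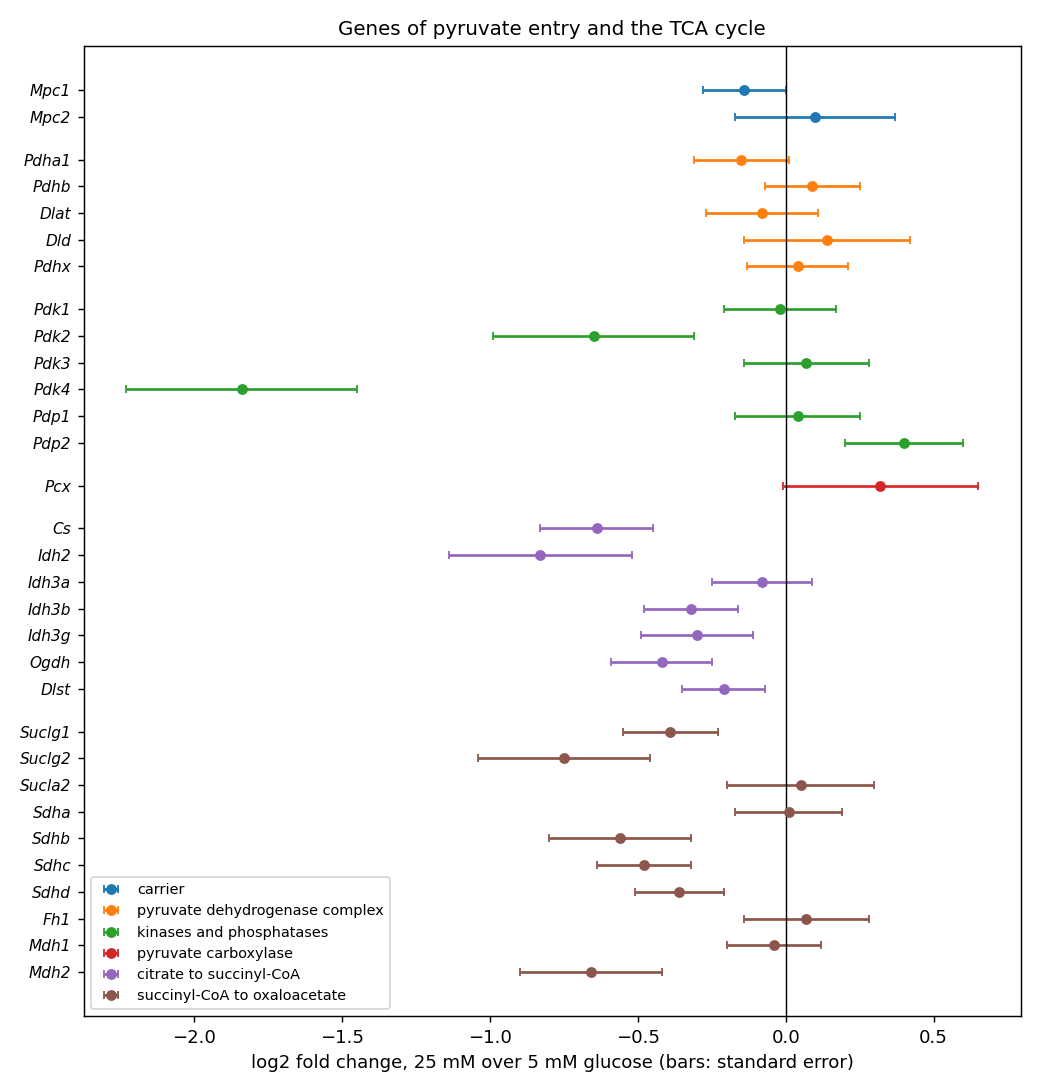
Log2 fold change of 25 mM over 5 mM glucose (x axis) for each of the 31 genes (y axis), grouped by role; points are edgeR estimates and bars their standard errors. Pdk4 lies farthest to the left at -1.84, and all 7 genes grouped from citrate to succinyl-CoA lie left of 0. Dld, which also serves that stretch, is grouped with the PDH complex and lies right of 0.

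The libraries held 17998905 to 36692484 estimated counts at 5 mM and 14815285 to 23129541 at 25 mM, and the summed replicates 43002302 to 60098862 and 37944826 to 42451809. The retinal label was checked with 10 rod markers, which were all present and whose summed level was 3043 to 5444 CPM at 5 mM and 6692 to 8733 CPM at 25 mM. All 10 had log2 fold changes above 0 (median 1.10) and 5 passed an FDR under 0.05, against 1.98% of all genes tested. The summed level of 7 vascular markers was 915 to 1591 CPM at 5 mM and 505 to 844 CPM at 25 mM, and that of 6 microglial markers 78.8 to 173 against 45.6 to 96.5 CPM, with 0 of either list past that FDR (edgeR), and 5 and 4 lower at an unadjusted p under 0.05. Pigment epithelium markers summed to 2.37 to 3.62 and 1.45 to 2.58 CPM, and skeletal muscle markers, 1 of 6 at 0 in every replicate, to 0.903 to 1.81 and 1.26 to 1.63 CPM. Cone, bipolar, amacrine, ganglion cell and Mueller glia markers were present in both groups, with 1 cone gene past an FDR under 0.05 in edgeR and 0 of the other lists, and with 1, 2, 2, 1 and 1 lower and 3, 2, 1, 0 and 1 higher at an unadjusted p under 0.05. Over all genes tested, 15.5% were lower and 13.2% higher at that unadjusted p. In whole tissue, fewer cells of a type and less RNA per cell cannot be told apart, and the part of these cell types in the values below was not tested.

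Replicate 1 at 5 mM stood apart from its group. It was the lowest 5 mM replicate in 12 of the 31 genes, the highest in 15 and between the others in 4. Its position followed the base composition of the transcripts: across the 31 genes, the log2 ratio of replicate 1 to the mean of the other 5 mM replicates had a Spearman rho of -0.92 and a Pearson r of -0.92 with GC content. GC content here is the mean over a gene's annotated transcripts, and it ranged from 39.3% (Dld) to 57.0% (Pdk2) with a median of 48.4%. The log2 fold change of 25 over 5 mM had a rho of -0.68 with GC content across the same genes, and -0.79 without replicate 1. It was -0.15 once GC content and transcript length had been corrected for in each replicate. That correction takes out the part of each replicate's levels that follows GC content and length, so this weakening was built in. A difference between the glucose groups that follows GC content would be taken out as well. All these points come from the same 6 samples, and the genes are not independent replicates. Values without this replicate and with the GC correction are given beside many of the genes whose direction, call or size they move. For the PDH complex they are given as a median and for Dld, and other PDH genes changed sign as well.

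**Figure D2:**
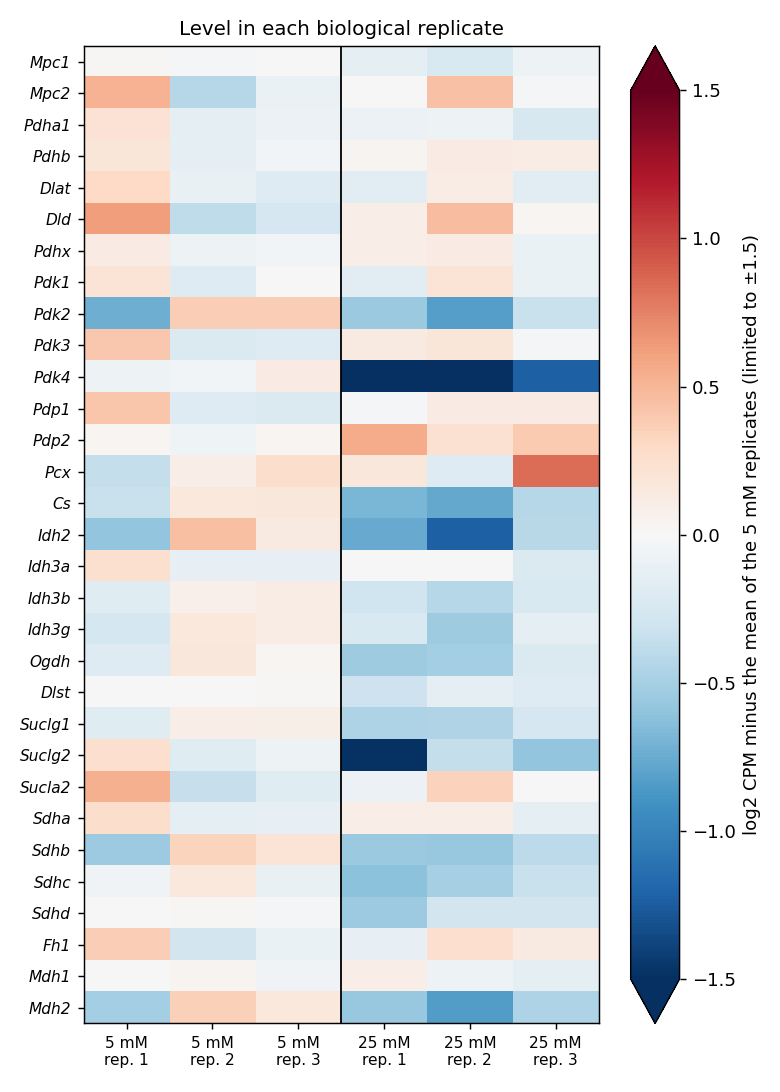
Level of each of the 31 genes (y axis) in each biological replicate (x axis), as log2 CPM minus the mean of the 5 mM replicates, with colours limited to 1.5 either way. Replicate 1 at 5 mM is blue for Pdk2, Idh2, Sdhb and Mdh2, as the 25 mM replicates are, while Pdk4 is pale in all 5 mM replicates and dark blue in the 25 mM replicates.

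Without replicate 1 at 5 mM, 8 of the 31 genes passed an FDR under 0.05 in edgeR, all lower at 25 mM, where 14.9% of all genes tested were called lower. They were Cs, Sdhb, Mdh2, Pdk4, Ogdh, Idh2, Pdk2 and Suclg1, with log2 fold changes between -1.88 (Pdk4) and -0.48 (Suclg1). With the GC and length correction and all 6 samples, 2 genes passed, Pdk4 at -1.71 and Suclg2 at -0.86, against 7.05% of all genes called lower. In the batch 1 libraries alone 3 genes passed, Cs, Pdk4 and Suclg2, against 10.1% of all genes called lower, and in the batch 2 libraries alone 0 passed, as did 0 of all genes.

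Promoter sequences are shown for 3 genes whose replicates did not overlap, one for each main step: Pdk4, which regulates pyruvate entry, Cs, which starts the cycle, and Sdhd, a subunit of succinate dehydrogenase. These 3 were chosen after their values were seen. Each line is the 250 bases before the RefSeq gene start in GRCm38.p6, read 5′ to 3′ on the gene's strand, at chr6:5496279-5496528 (minus strand), chr10:128337477-128337726 (plus strand) and chr9:50603850-50604099 (minus strand). Capitals mark letters of searched motifs on either strand.
Pdk4: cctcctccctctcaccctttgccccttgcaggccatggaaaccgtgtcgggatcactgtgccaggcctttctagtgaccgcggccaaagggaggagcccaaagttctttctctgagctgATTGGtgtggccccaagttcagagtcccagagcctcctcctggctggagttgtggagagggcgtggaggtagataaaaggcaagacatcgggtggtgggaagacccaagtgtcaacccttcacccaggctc
Cs: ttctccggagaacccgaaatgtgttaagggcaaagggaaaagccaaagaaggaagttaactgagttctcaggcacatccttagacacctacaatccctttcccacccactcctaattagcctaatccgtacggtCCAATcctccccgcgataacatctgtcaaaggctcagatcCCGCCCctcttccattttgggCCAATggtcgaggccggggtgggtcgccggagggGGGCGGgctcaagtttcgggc
Sdhd: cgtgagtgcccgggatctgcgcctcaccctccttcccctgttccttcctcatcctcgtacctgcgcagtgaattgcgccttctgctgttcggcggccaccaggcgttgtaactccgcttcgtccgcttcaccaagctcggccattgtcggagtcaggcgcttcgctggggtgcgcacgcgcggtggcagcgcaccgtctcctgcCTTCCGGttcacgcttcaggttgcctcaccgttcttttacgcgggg

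The Pdk4 window held 1 CCAAT box, the Cs window 2 CCAAT boxes and 2 GC boxes, and the Sdhd window 1 ETS motif, with no overlap between them. RefSeq promoters were found for 28 of the 31 genes, and those of Idh3a, Pdp1 and Sdhc were not. A GC box (GGGCGG) was present in 19 of the 28 genes and in 35.4% of the 27025 mouse genes with a promoter in that table (32.7% of its 32851 promoters), and a CCAAT box (CCAAT) in 18 of the 28 and 37.5% of genes (33.8% of promoters). The ETS motif CCGGAAG was in 3 genes (Idh3g, Mpc1 and Sdhd) and 7.83% of all genes (6.91% of promoters), and the E-box CACGTG in 4 genes (Ogdh, Pcx, Pdk2 and Pdp2) and 6.86% of genes (6.02% of promoters). The estrogen-related receptor motif AAGGTCA and the forkhead motif GTAAACA were in 0 of the 28 genes and in 4.70% and 3.54% of all genes (4.08% and 3.17% of promoters). Both strands were searched for every motif, and a match describes letters only.

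The mitochondrial pyruvate carrier is a pair of small membrane proteins. Mpc1 measured 102, 98.8 and 101 CPM at 5 mM and 91.6, 85.7 and 95.2 CPM at 25 mM. The replicates did not overlap, but the difference was small, with a log2 fold change of -0.14 (SE 0.14, FDR 0.516 in edgeR), and it was 0.06 in batch 1 and -0.35 in batch 2. Exons of Mpc1 overlap the non-coding gene 4930506C21Rik on the other strand, and the use of strand in counting is not stated, so its counts are uncertain.

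Mpc2, the other carrier subunit, measured 65.7, 34.1 and 42.6 CPM at 5 mM and 45.4, 62.0 and 44.9 CPM at 25 mM. The groups overlapped over most of their range (log2 fold change 0.10, SE 0.27, edgeR FDR 0.829), and the value was 0.40 without replicate 1 at 5 mM and -0.05 with the GC correction. Per transcript length, Mpc1 had the highest computed mean of the 31 genes at 5 mM, close to that of Sdha. It was 247 ± 6.13 TPM (SD, n = 3), transcripts scaled for length to a total of 1000000, against 128 ± 35.2 TPM for Mpc2. The TPM of Mdh1 (117 at 5 mM) left out most of its counts, which were not on annotated transcripts. The place of Mdh1 in this order is therefore not known.

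The PDH complex joins the catalytic E1 subunits (Pdha1, Pdhb), the acetyl transferase E2 (Dlat), the E3 dehydrogenase (Dld) and the protein that binds E3 (Pdhx). None of the 5 differed past an FDR under 0.05 or an unadjusted p under 0.05 in edgeR, with log2 fold changes from -0.15 (Pdha1) to 0.14 (Dld), a median of 0.04, and FDRs of 0.568 to 0.886. The 3 replicates of the groups overlapped for each. The median of the 5 was 0.10 without replicate 1 at 5 mM and -0.14 with the GC correction, so it had no stable direction. Dld, also a part of the 2-oxoglutarate dehydrogenase complex, had one of the 3 largest upward values of the 31 genes and measured 300.4, 149.8 and 164 CPM at 5 mM and 209, 268 and 199 CPM at 25 mM. Replicate 1 at 5 mM lay above all other samples, and the Dld value was 0.52 without it (FDR 0.0593) and -0.28 with the GC correction. Exons of Pdha1 overlap Map3k15 on the other strand.

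PDH kinases phosphorylate E1 and shut the complex, and the 4 genes differ in when and where they act. Pdk4, the family member known for its rise in fasting and when fat is burned, lies on chromosome 6 (5483351 to 5496309, minus strand, GRCm38). It measured 12.2, 12.4 and 13.9 CPM at 5 mM and 1.79, 3.53 and 5.43 CPM at 25 mM, that is 676, 549 and 655 summed counts against 77, 129 and 240. Every 5 mM replicate lay above every 25 mM replicate, and the gap between the groups was wider than the range within either.

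The means of Pdk4 were 12.9 ± 0.94 CPM and 3.58 ± 1.82 CPM (SD, n = 3), and the log2 fold change was -1.84 (SE 0.39, FDR 0.0540 in edgeR), the largest of the 31 genes. By p-value it ranked 540th of all genes tested, and its FDR lay just above 0.05. The value was -1.88 without replicate 1 at 5 mM (FDR 0.0189) and -1.71 with the GC correction (FDR 0.0231). Over 22 alternative settings it stayed below 0, from -2.67 to -0.97, with adjusted p-values from 0.000144 to 0.534, and 12 of the 22 passed. Among those that passed, 1 took the 12 libraries as separate samples and so counted technical replicates as independent.

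The batches gave Pdk4 different sizes. In batch 1 the 5 mM libraries held 18, 16.8 and 12 CPM and the 25 mM libraries 2.28, 1.26 and 3.80 CPM, a log2 fold change of -2.67 (FDR 0.0101 in edgeR). In batch 2 they held 3.89, 6.77 and 15.6 CPM against 1.35, 4.99 and 6.74 CPM, a log2 fold change of -0.97 (FDR 0.534). The groups were apart in batch 1 and overlapped in batch 2, where the technical replicates of replicate 1 and replicate 2 at 5 mM were low. The difference between the batches was not tested.

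Pdk2, the broadly expressed kinase, measured 7.03, 15.3 and 15.2 CPM at 5 mM and 8.0, 6.62 and 9.34 CPM at 25 mM. Replicate 1 at 5 mM lay among the 25 mM replicates, and the log2 fold change was -0.65 (SE 0.34, FDR 0.239 in edgeR). It was -0.93 (FDR 0.0255) without that replicate and -0.18 (FDR 0.500) with the GC correction, and Pdk2 had the highest GC content of the 31 genes.

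Pdk1, the kinase induced under low oxygen, measured 49.5, 37.5 and 42.9 CPM at 5 mM and 38.3, 49.8 and 40.2 CPM at 25 mM. Pdk3 measured 72.9, 47.0 and 48.0 CPM against 60.3, 62.1 and 54.0 CPM, and had the highest level of the 4 kinases per transcript length (51.3 ± 11.4 TPM at 5 mM, SD, n = 3, against 6.77 ± 0.947 TPM for Pdk4). Both kinases overlapped between the groups, with log2 fold changes of -0.02 (SE 0.19) and 0.07 (SE 0.21) and edgeR FDRs of 0.953 and 0.842. They were 0.09 and 0.31 without replicate 1 at 5 mM and -0.10 and -0.31 with the GC correction.

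PDH phosphatases remove the kinases' mark. Pdp2 measured 12.3, 11.5 and 12.3 CPM at 5 mM and 17.7, 14.1 and 15.8 CPM at 25 mM, and was the only gene of the 31 whose 25 mM replicates all lay above the 5 mM replicates. Its log2 fold change was 0.40 (SE 0.20, FDR 0.228 in edgeR), 0.51 in batch 1 and 0.35 in batch 2, and it lay between 0.32 and 0.58 over the 22 alternatives, of which 0 passed.

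Pdp1 measured 99.1, 65.0 and 63.8 CPM at 5 mM and 72.8, 81.1 and 80.9 CPM at 25 mM. The groups overlapped because replicate 1 at 5 mM was the highest sample, and the log2 fold change was 0.04 (SE 0.21, edgeR FDR 0.906), 0.28 without that replicate and -0.17 with the GC correction.

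**Figure D3:**
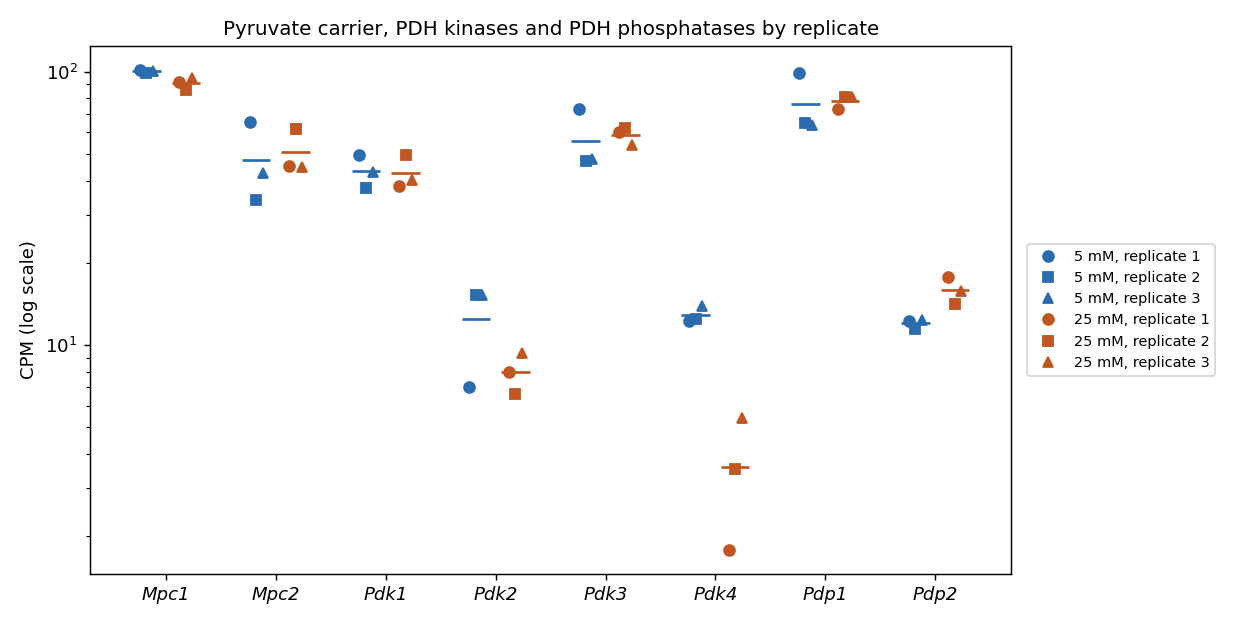
CPM on a log axis (y) for the carrier, kinase and phosphatase genes (x) in each biological replicate, blue for 5 mM and orange for 25 mM glucose; horizontal lines are group means. The Pdk4 points at 25 mM lie between 1.79 and 5.43 CPM, below all 5 mM points, and the Pdk2 circle at 5 mM lies with the 25 mM points.

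Pcx, which encodes pyruvate carboxylase, was expressed at a low level. It measured 4.57, 6.34 and 7.11 CPM at 5 mM and 6.65, 5.17 and 10.6 CPM at 25 mM, with overlap between the groups. The log2 fold change was 0.32 (SE 0.33, FDR 0.542 in edgeR). It was 0.16 without replicate 1 at 5 mM and 0.64 (FDR 0.0955) with the GC correction, and it turned to -0.77 when the transcript table was summed in place of the gene table, and the counts of single Pcx transcripts moved between isoforms from sample to sample. Pcx-204 held 0, 243 and 395 counts at 5 mM and 100, 0 and 151 at 25 mM, so no direction could be given.

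The first stretch of the cycle joins acetyl-CoA to oxaloacetate and carries the carbon to succinyl-CoA. Dld, which also serves this stretch through the 2-oxoglutarate dehydrogenase complex, was listed with PDH. Its log2 fold change was 0.14, 0.52 without replicate 1 at 5 mM and -0.28 with the GC correction. All 7 genes listed for this stretch had log2 fold changes below 0, from -0.83 to -0.08 with a median of -0.32. In edgeR 0 of the 7 passed an FDR under 0.05, with 3 lower at an unadjusted p under 0.05 (Cs, Idh2 and Ogdh). The median was -0.43 without replicate 1 at 5 mM, -0.30 and -0.34 in batches 1 and 2, and -0.28 with the GC correction. Over all genes tested the same medians were 0.03, 0.01, -0.03 and 0.01. In the main edgeR fit, 50.7% of all genes were below 0 and 15.5% were lower at an unadjusted p under 0.05.

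Cs, citrate synthase, which is often used as a measure of mitochondrial content, lies on chromosome 10 (128337734 to 128362479, plus strand). It measured 143, 201 and 202 CPM at 5 mM and 112, 106 and 133 CPM at 25 mM. The groups did not overlap, and the log2 fold change was -0.64 (SE 0.19, FDR 0.0891 in edgeR). The value was -0.79 (FDR 0.0154) without replicate 1 at 5 mM and -0.64 (FDR 0.0560) with the GC correction.

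In batch 1 the Cs libraries held 132, 242 and 206 CPM at 5 mM and 105, 81.7 and 116 CPM at 25 mM (log2 fold change -0.95, edgeR FDR 0.0422). In batch 2 they held 154, 148 and 197 CPM against 123, 123 and 146 CPM (-0.34, FDR 0.477). The groups were apart within each batch.

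Idh2, the mitochondrial isocitrate dehydrogenase that makes NADPH, measured 22.7, 46.8 and 37.3 CPM at 5 mM and 20.1, 14.5 and 25.5 CPM at 25 mM. Replicate 1 at 5 mM lay below the highest 25 mM replicate. The log2 fold change was -0.83 (SE 0.31, FDR 0.132 in edgeR), -1.07 (FDR 0.0231) without that replicate and -0.41 (FDR 0.0995) with the GC correction.

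The NAD-dependent isocitrate dehydrogenase is built from Idh3a, Idh3b and Idh3g. Idh3b measured 144, 173 and 176 CPM at 5 mM and 133, 121 and 139 CPM at 25 mM, without overlap (log2 fold change -0.32, SE 0.16, edgeR FDR 0.215). Its exons overlap Nop56 on the other strand. The catalytic subunit gene Idh3a and Idh3g overlapped between the groups, with log2 fold changes of -0.08 and -0.30 and edgeR FDRs of 0.782 and 0.307. Without replicate 1 at 5 mM they were 0.05 and -0.43, and with the GC correction -0.30 and -0.22. Idh3b was -0.41 and -0.20 in the same order.

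The 2-oxoglutarate dehydrogenase complex resembles PDH in its build, with Ogdh as its first and Dlst as its second enzyme. Ogdh measured 114, 147 and 134 CPM at 5 mM and 89.9, 91.8 and 112 CPM at 25 mM, and Dlst 139, 139 and 141 CPM against 113, 126 and 122 CPM. Neither gene overlapped between the groups. The log2 fold change of Ogdh was -0.42 (SE 0.17, FDR 0.155 in edgeR), -0.52 without replicate 1 at 5 mM (FDR 0.0473) and -0.25 with the GC correction. That of Dlst was -0.21 (SE 0.14, FDR 0.344 in edgeR), and it was -0.71 when protein-coding transcripts alone were summed. Transcripts not annotated as protein-coding held 59.8%, 38.2% and 46.8% of the Dlst counts at 5 mM and 61.8%, 72.8% and 55.9% at 25 mM. They included retained introns and Dlst-205, which is annotated with nonsense-mediated decay.

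The second stretch returns succinyl-CoA to oxaloacetate. The log2 fold changes of its 10 genes had their median at -0.38, and 7 were below 0, as were 50.7% of all genes tested. Here 0 passed an FDR under 0.05 in edgeR, and 6 were lower at an unadjusted p under 0.05, against 15.5% of all genes. They were Suclg1, Suclg2, Sdhb, Sdhc, Sdhd and Mdh2, and 4 of them did not overlap. Over all genes tested 15.8% were lower without overlap. The median was -0.42 without replicate 1 at 5 mM, -0.30 in batch 1, -0.32 in batch 2 and -0.29 with the GC correction.

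Succinyl-CoA ligase pairs the shared subunit gene Suclg1 with either Suclg2, which gives the GTP-forming enzyme, or Sucla2, which gives the ATP-forming enzyme. Suclg2, on chromosome 6 (95473009 to 95718800, minus strand), measured 73.0, 53.8 and 58.1 CPM at 5 mM and 21.8, 47.8 and 40.4 CPM at 25 mM. The groups did not overlap, and the log2 fold change was -0.75 (SE 0.29, FDR 0.138 in edgeR), -0.61 without replicate 1 at 5 mM and -0.86 (FDR 0.0462) with the GC correction.

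The Suclg2 value was larger in batch 1. There the libraries held 85.6, 63.4 and 62.8 CPM at 5 mM and 25.1, 20.7 and 30.6 CPM at 25 mM (log2 fold change -1.48, edgeR FDR 0.00997). In batch 2 they held 53.9, 41.4 and 53.4 CPM against 19.2, 65.5 and 48.2 CPM (-0.15, FDR 0.881). The 2 technical replicates of replicate 2 at 25 mM thus held 20.7 and 65.5 CPM, and the difference between the batches was not tested.

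Suclg1 measured 59.6, 72.3 and 71.9 CPM at 5 mM and 49.1, 49.4 and 56.8 CPM at 25 mM. The groups did not overlap, by a small gap (log2 fold change -0.39, SE 0.16, edgeR FDR 0.161), and the value was -0.48 (FDR 0.0498) without replicate 1 at 5 mM. Sucla2 overlapped between the groups, at 159 ± 54.5 CPM and 164 ± 26.7 CPM (SD, n = 3), with a log2 fold change of 0.05 (SE 0.25). Replicate 1 at 5 mM held 221 CPM against 120.0 and 135 CPM in the others, and the value was 0.36 without it and -0.29 with the GC correction.

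Succinate dehydrogenase is complex II of the respiratory chain and has 4 subunits. Sdhc and Sdhd, its membrane anchors, measured 87.1, 101 and 83.5 CPM and 98.9, 100.4 and 97.8 CPM at 5 mM, and 58.7, 63.7 and 71.8 CPM and 67.8, 81.6 and 81.6 CPM at 25 mM. Neither anchor overlapped between the groups. The log2 fold changes were -0.48 (SE 0.16) for Sdhc and -0.36 (SE 0.15) for Sdhd, with edgeR FDRs of 0.107 and 0.161. With the GC correction they were -0.32 and -0.38, and both stayed below 0 over the 22 alternatives, of which 0 passed.

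Sdhb, the iron-sulfur subunit, had a log2 fold change of -0.56 (SE 0.24, edgeR FDR 0.167). It measured 44.1, 80.9 and 74.4 CPM at 5 mM and 43.6, 43.2 and 48.8 CPM at 25 mM, with replicate 1 at 5 mM among the 25 mM values. Without that replicate the value was -0.78 (FDR 0.0148), and with the GC correction it was -0.25. Sdha, the flavoprotein that holds the catalytic site, had the highest level of the 4 subunits per transcript length. It was 243 ± 21.4 TPM at 5 mM and 257 ± 28.8 TPM at 25 mM (SD, n = 3). The Sdha log2 fold change was 0.01 (SE 0.18), 0.15 without replicate 1 at 5 mM and -0.05 with the GC correction.

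Mdh2, the mitochondrial malate dehydrogenase, showed the same arrangement as Sdhb. It measured 86.5, 158 and 138 CPM at 5 mM and 83.6, 69.0 and 89.5 CPM at 25 mM, with a log2 fold change of -0.66 (SE 0.24, FDR 0.123 in edgeR), -0.88 (FDR 0.0145) without replicate 1 at 5 mM and -0.28 (FDR 0.111) with the GC correction. Mdh1, the cytosolic enzyme of the malate-aspartate shuttle, had a log2 fold change of -0.04 (SE 0.16), with 0.32 in batch 1 and -0.36 in batch 2, and its exons overlap Wdpcp on the other strand. Fh1, fumarate hydratase, had a value of 0.07 (SE 0.21), 0.27 without replicate 1 at 5 mM and -0.10 with the GC correction. Both overlapped between the groups.

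**Figure D4:**
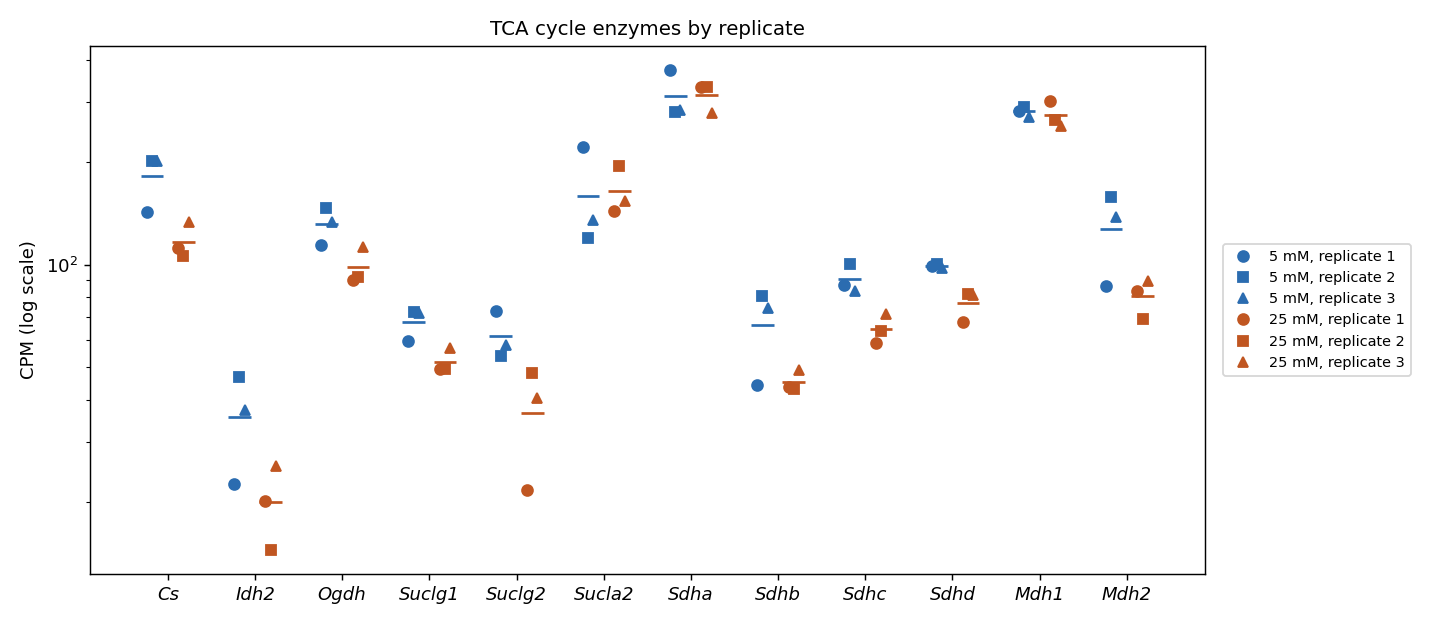
CPM on a log axis (y) for 12 TCA cycle genes (x) in each biological replicate, blue for 5 mM and orange for 25 mM glucose; horizontal lines are group means. For Cs, Ogdh, Suclg1, Suclg2, Sdhc and Sdhd all orange points lie below all blue points, and for Idh2, Sdhb and Mdh2 the 5 mM circle lies with the orange points.

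Ratios between 2 genes of the same replicate were computed from TPM for 11 pairs, so that a change in the share of mitochondrial transcripts as a whole would cancel. With 3 replicates against 3 the exact permutation test (two-sided) cannot go below 0.1, and adjusted over the 11 pairs no p was below 0.314. The ratio of Suclg2 to Sucla2 was 0.255, 0.367 and 0.362 at 5 mM and 0.133, 0.181 and 0.216 at 25 mM, a mean log2 difference of -0.90 without overlap. The ratio of Pdk4 to Pdk3 was 0.0909, 0.147 and 0.177 against 0.0193, 0.0309 and 0.0608, a difference of -2.01 without overlap.

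The ratio of the E1 subunits, Pdhb to Pdha1, was 1.45, 1.49 and 1.51 at 5 mM and 1.67, 1.78 and 1.91 at 25 mM, also without overlap (log2 difference 0.26). The other 8 ratios overlapped, among them those of Sdhb, Sdhc, Sdhd and Cs to Sdha, of Mdh2 to Mdh1 and of Idh2 to Idh3a, each with replicate 1 at 5 mM the lowest of its group. The genes of a pair differ in GC content, and the ratios were not corrected for it. For Mdh1 the annotated transcripts held few of the gene's counts. Mdh1-202, the fullest of them, held 1164, 1254 and 1142 counts at 5 mM, where the gene table gave 15699, 12814 and 12778. The ratio of Mdh2 to Mdh1 therefore rests on a small part of Mdh1.

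**Figure D5:**
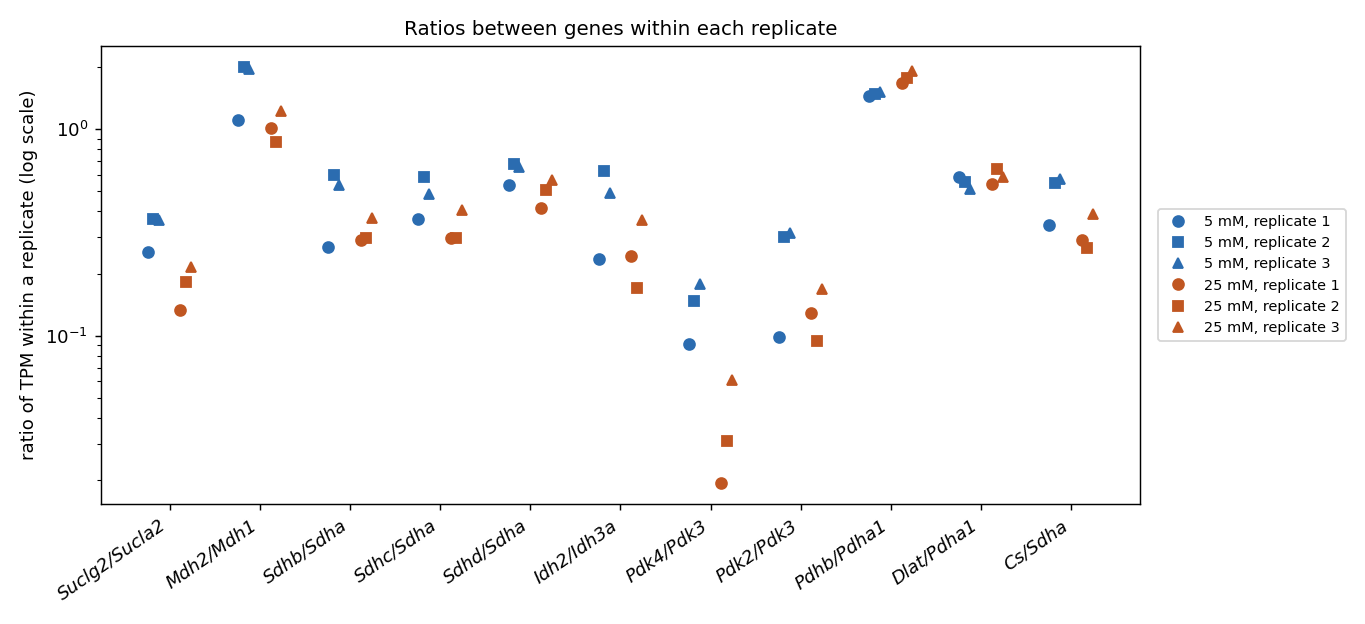
Ratio of TPM of 2 genes within each biological replicate on a log axis (y) for 11 pairs (x), blue for 5 mM and orange for 25 mM glucose. The groups are apart for Suclg2/Sucla2, Pdk4/Pdk3 and Pdhb/Pdha1, and the 5 mM circle is the lowest blue point in 10 of the 11 pairs.

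Total RNA libraries also read transcripts of a coding gene that are not annotated as protein-coding. These were retained introns, processed transcripts and transcripts annotated with nonsense-mediated decay, and all were counted together here. The share of a gene's counts on such transcripts could be computed for 24 of the 31 genes. These had at least 200 counts in every replicate and at least 1 such transcript with counts. In 4 of them, Mpc1, Pdha1, Cs and Suclg1, all 25 mM replicates lay above the 5 mM replicates and in 0 below, whereas 26.5% of 8627 coding genes lay above. The Cs share was 0.314%, 0.377% and 0.334% at 5 mM and 0.948%, 1.15% and 0.753% at 25 mM. The Suclg1 share was 3.22%, 2.58% and 1.58% against 5.94%, 4.57% and 4.58%. Mdh1 was among the 24 genes, with its share taken over the few counts on its annotated transcripts.

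The Fh1 share separated replicate 1 at 5 mM from its group, at 19.1% against 3.07% and 4.25% in the other 5 mM replicates, with 14.6%, 20.3% and 14.1% at 25 mM. Fh1-204, annotated with nonsense-mediated decay, held 534, 35 and 23 counts at 5 mM and 137, 240 and 227 at 25 mM. Summing protein-coding transcripts alone called 0 of the 31 genes at an FDR under 0.05 in edgeR.

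Other genes of the pathway were read from 4 lists. Of 9 tested identifiers for other enzymes (Nnt has 2, and Pdha2 and Mpc1l were not tested) 0 passed an FDR under 0.05 in edgeR, as did 0 of 19 genes for anaplerosis and metabolite shuttles, 0 of 13 for lipoylation, assembly and cofactors and 0 of 15 for regulators. At an unadjusted p under 0.05 these lists held 1, 3, 1 and 2 genes lower and 0, 0, 0 and 4 higher. Over all genes tested 15.5% were lower and 13.2% higher at that threshold. Without replicate 1 at 5 mM, 1, 6, 1 and 3 genes passed as lower and 0, 1, 0 and 3 as higher, where 14.9% of all genes were called lower and 11.7% higher.

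Among the other enzymes, Mdh1b, a testis-rich relative of Mdh1, measured 0.578, 0.385 and 0.340 CPM at 5 mM and 0.835, 0.739 and 0.407 CPM at 25 mM, and had the highest log2 fold change, 0.59 (SE 0.41, edgeR FDR 0.358), with overlap between the groups. The lowest was -0.63 (SE 0.24, FDR 0.130) for 1 of the 2 gene identifiers of Nnt, the transhydrogenase that makes mitochondrial NADPH, while the other gave 0.19, and both are uncertain because reads of this gene could be divided between them. C57BL/6J mice are known to carry a deletion in Nnt.

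Among the anaplerotic and shuttle genes, Pck2, the mitochondrial enzyme that draws phosphoenolpyruvate from the cycle, had the lowest value. It measured 12.6, 31.3 and 24.7 CPM at 5 mM and 9.76, 12.8 and 12.3 CPM at 25 mM (log2 fold change -0.98, SE 0.33, edgeR FDR 0.109), with overlap through replicate 1 at 5 mM. Without that replicate the value was -1.27 (FDR 0.0122), and with the GC correction it was -0.54 (FDR 0.130).

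Among the genes for lipoylation, assembly and cofactors, Bckdk, the kinase of the branched-chain ketoacid dehydrogenase, measured 11.9, 25.9 and 26.0 CPM at 5 mM and 11.3, 11.3 and 13.8 CPM at 25 mM, with replicate 1 at 5 mM among the 25 mM values. Its log2 fold change was the lowest of that list at -0.81 (SE 0.32, edgeR FDR 0.144), -1.10 (FDR 0.0128) without that replicate and -0.43 (FDR 0.150) with the GC correction. Ppara, a nuclear receptor of fat oxidation, had the highest value among the regulators. It measured 1.12, 1.40 and 1.83 CPM at 5 mM and 4.47, 5.80 and 3.12 CPM at 25 mM. Its groups did not overlap, and the log2 fold change was 1.62 (SE 0.34, edgeR FDR 0.0525). The value was 1.46 (FDR 0.0240) without replicate 1 at 5 mM and 1.88 (FDR 0.0187) with the GC correction. Myc, a growth regulator that drives glutamine use, measured 24.9, 38.1 and 38.6 CPM against 6.45, 16.7 and 19.6 CPM, also without overlap (-1.25, SE 0.40, edgeR FDR 0.0963). The value was -1.43 (FDR 0.0347) without replicate 1 at 5 mM and -0.86 (FDR 0.131) with the GC correction.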

How the data were processed

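RNA was sequenced from mouse retinal explants after 48 hours in 5 mM or 25 mM glucose. The authors deposited expected counts, also called estimated counts, per gene and per transcript, one column per library and not normalized between libraries; the build named in the submitters' processing notes is GRCm38, and the counting tool and its use of strand are not given in the sources used here. Of the nonzero gene values 100% were not whole, and genes with a single transcript differed from the transcript table by a near-constant factor in each library (medians 0.9789 to 1.0141 over 787 genes). All sample columns were used and 0 were left out.

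The technical replicates of each biological replicate were summed and rounded. Genes were filtered with filterByExpr, scaled by TMM and tested with the quasi-likelihood method of edgeR 4.0.16 (as in its version 3; R 4.3.3), with Benjamini-Hochberg adjustment over 21061 genes, giving a biological coefficient of variation of 0.297. TPM and the shares of transcripts not annotated as protein-coding came from the transcript table with GENCODE M21 lengths. That annotation matched 92.0% of the transcripts, and the others did not enter these values. Symbols came from the same annotation (48766 identifiers, 90.8%), and a GC value was found for 96.4% of genes tested. Alternatives were RLE factors, library totals, DESeq2 1.42.0, limma-voom (limma 3.58.1), other filters, 12 libraries, each batch alone, a replicate block, splines of GC content and length, transcript sums and each replicate left out. Amplified reads are not independent molecules, so depth limits counting error only. The procedure was tested on simulated data, and Python 3.11.15 with pandas 2.3.3 and matplotlib 3.10.9 made tables and plots.

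The 31 genes and the lists were chosen with earlier results of these data known. Replicate values are given for the carrier, kinases, phosphatases and Pcx, for genes whose groups did not overlap and for the 3 largest fold changes in each direction; values of Sdhb and Mdh2 were added after they were seen. Of each pathway list the largest fold change in each direction is named, apart from some results that are not reported here. Other assays of the study were not analysed here.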

Additional observations from a re-analysis of the deposited data

Results flagged for a closer look

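Each of the 31 genes was examined for a library that stood apart from the other 5 of its glucose group, by the gap to its nearest neighbour as a share of the range (Dixon's test). Of 62 groups 1 passed, where chance gives about 3.1. In the 25 mM libraries Pcx held 16.2 CPM in the first technical replicate of replicate 3, and the other 5 libraries held 3.61 to 7.99 CPM. Pcx, which encodes pyruvate carboxylase, had the uncertain isoform counts described above, and the second technical replicate of the same sample held 5.57 CPM.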

How the results depend on the processing

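Among the 31 genes 0 passed an FDR under 0.05, of 417 genes in all, and the median log2 fold change of the 31 was -0.14. The number of these genes that passed, with the number of all genes in parentheses, was 1 (595) with the newer quasi-likelihood method of edgeR, 2 (3489) with DESeq2, 1 (418) with limma-voom, 1 (1979) without a count filter, 3 (2918) with 12 libraries as separate samples, 3 (3279) in batch 1, 0 (0) in batch 2, 2 (2748) with the GC and length correction, 0 (54) with protein-coding transcripts summed and 1 (1731) without the second technical replicate of replicate 1 at 5 mM, which was added after seeing the data. At the stricter threshold (FDR under 0.01, more than 2-fold) there were 0 genes, but 1387 with DESeq2, 275 without a filter, 109 with 12 libraries, 367 in batch 1, 123 with the GC correction and 56 without that technical replicate. The fit of 12 libraries counted technical replicates of a sample as independent, which they are not, so its calls do not measure the spread between samples.

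Without 1 biological replicate each, the 31 genes gave 0 to 8 calls and a median of -0.18 to -0.03, all genes 0 to 5845 calls, and the stricter threshold 0 to 108. Of the replicates, replicate 1 at 5 mM gave the highest of these values when left out, replicate 3 at 25 mM gave 494 and 1 call (Pdk4), and each of the other 4 gave 0. These fits rest on 2 samples against 3.

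The replicate block gave 990 genes and 1 of the 31 (Pdk4), and with the GC correction 3073 and 3, 484 at the stricter threshold and a median of -0.24. Replicates with the same number had correlations of -0.014, -0.449 and 0.285, and those with different numbers ran from -0.419 to 0.511. These values showed no pairing by number, but with 3 replicates in a group they cannot exclude one. The median was -0.25 with the GC correction alone and -0.23 with transcripts summed.

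Of 418 values of 19 named genes, 363 kept direction and side of the threshold, 24 passed it in addition and 31 changed sign, and 12 genes never changed sign. The other 7 had values from -0.14 to 0.32. Pdk1 was 0.04 with library totals, 0.03 with 1 CPM in 3 samples and 0.15 both in batch 2 and with protein-coding transcripts. Mpc1 was 0.06 in batch 1 and 0.07 with protein-coding transcripts. In batch 2, Pdp1 and Pcx were both -0.03. With the GC correction Mpc2, Pdk3, Pdp1 and Dld were -0.05, -0.31, -0.17 and -0.28, and with the block as well -0.04, -0.31, -0.17 and -0.27. Pcx was -0.77 with transcripts summed and -0.73 with protein-coding ones, where Mpc2 was -0.02. Without 1 biological replicate each, Pdk1 lay from -0.13 to 0.09, Mpc2 from -0.10 to 0.40, Pdk3 from -0.05 to 0.31, Pdp1 from -0.08 to 0.28, Dld from -0.05 to 0.52 and Pcx from -0.02 to 0.54. The cause of these changes was not tested.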

Other observations

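Several genes of the pathway lists that were not among the largest changes had replicates that did not overlap. In all, the 4 lists held 1, 1, 0 and 2 identifiers lower without overlap and 0, 0, 1 and 3 higher. These were of 9, 19, 13 and 15 tested. Over all genes tested, 15.8% were lower and 16.0% higher without overlap. Their values were looked at after the comparison was run. Ppargc1a, a coactivator of mitochondrial genes, measured 32.3, 24.4 and 20.2 CPM at 5 mM and 62.1, 47.5 and 39.2 CPM at 25 mM, with a log2 fold change of 0.95 (SE 0.25, FDR 0.0711 in edgeR), 1.00 in batch 1 and 0.96 in batch 2. It was 1.15 (FDR 0.0161) without replicate 1 at 5 mM and 0.88 (FDR 0.0333) with the GC correction. Esrrb, an estrogen-related receptor, had a value of 0.69 (SE 0.25, edgeR FDR 0.126), also without overlap, 0.47 (FDR 0.0931) without that replicate and 1.12 (FDR 0.00647) with the GC correction. Of the 15 regulators listed, 9 had values above 0 and 6 below, and their bearing on the 31 genes was not tested.

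Glud1, glutamate dehydrogenase, which passes glutamate carbon to 2-oxoglutarate, measured 187, 191 and 201 CPM at 5 mM and 98.5, 124 and 132 CPM at 25 mM. Its log2 fold change was -0.71 (SE 0.17, FDR 0.0626 in edgeR). In batches 1 and 2 Glud1 was -1.18 and -0.21, and it was -0.73 (FDR 0.0208) without replicate 1 at 5 mM and -0.87 (FDR 0.0171) with the GC correction. Foxo1, a forkhead factor of the fasting response, measured 42.3, 51.4 and 54.2 CPM against 26.8, 28.7 and 34.7 CPM without overlap (-0.71, SE 0.19, edgeR FDR 0.0718), with -1.46 in batch 1 and 0.08 in batch 2. It was -0.81 (FDR 0.0181) without replicate 1 at 5 mM and -0.75 (FDR 0.0381) with the GC correction.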
